A study of Mus musculus with 4 samples.

Results

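The genes described here are 35 interferon-stimulated effectors, the genes that cells switch on when they sense interferon, chosen by symbol and leaving out the large Ifit, Oas, Ifi200, Trim30, Gbp and Slfn families. Of these, 34 had a row under their own symbol in a count table of 23418 gene symbols, and all 34 passed the filter on low counts. Ifi27 was counted under its older symbol Ifi27l1 and is given apart. RNA was sequenced from purified B cells of cervical lymph nodes, which drain the head and the salivary glands, of mice of 2 strains. The control group is labelled BL/10, and the other group is NOD.B10, a strain with the autoimmune-prone NOD background and the H2 region of the B10 strain that serves as a spontaneous model of Sjögren's disease. Each strain had 2 libraries, of 19328803 to 29372751 reads, and the labels name no treatment, allele or age for either strain. No label ties a library to an animal, so p-values here measure only the spread between these libraries, which may be technical. The libraries are called BL/10-1, BL/10-2, NOD.B10-1 and NOD.B10-2. The comparison asks how B cells of the disease-prone strain differ from those of the control strain.

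Type I interferons bind a receptor made of Ifnar1 and Ifnar2, whose kinases Jak1 and Tyk2 activate transcription factors by phosphorylation. With Irf9 these form the complex ISGF3, which binds the interferon-stimulated response element (ISRE) in the promoters of a large set of genes. Many of their products block steps of virus replication, while others, such as Usp18, switch the signal off again. Raised expression of such genes in blood and salivary gland is a known feature of many patients with Sjögren's disease.

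Most of these effectors were lower in the NOD.B10 libraries. Of the 34 genes, 22 fell, 1 rose and 11 did not pass the test, against 8.63% of all 13075 genes tested that fell and 6.55% that rose (edgeR quasi-likelihood test, with a false discovery rate, FDR, which is the Benjamini-Hochberg adjusted p, under 0.05). The falls ran from 47.9-fold for Rsad2 to 1.29-fold for Adar. Of the genes that fell, 14 did so by at least 2-fold and 6 by at least 4-fold, against 5.8% and 4.07% of all genes tested. The median log2 fold change (NOD.B10 over BL/10) of the 34 genes was −0.75, beside −0.0032 over all genes tested, and the fitted value was below 0 for 33 of them. In 28 genes both NOD.B10 libraries lay below both BL/10 libraries, against 27.7% of all genes tested. In bulk RNA, fewer cells of a type and less RNA per cell cannot be told apart. The summed levels of T cell and of erythroid markers, given below, were lower in the same NOD.B10 libraries. Leaving out 1 library changed which genes passed, most when either NOD.B10 library was left out. The median log2 fold change of the 34 genes then lay between −0.88 and −0.73. The shares of 8.63% and 6.55% of all genes tested also apply beside the counts given below for each role. Levels below are counts per 1000000 reads (CPM) with the scaling factors of edgeR's TMM method, given for the libraries of a strain in that order or as mean ± SD of 2 libraries, and SE is the standard error of a log2 fold change.

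**Figure D1:**
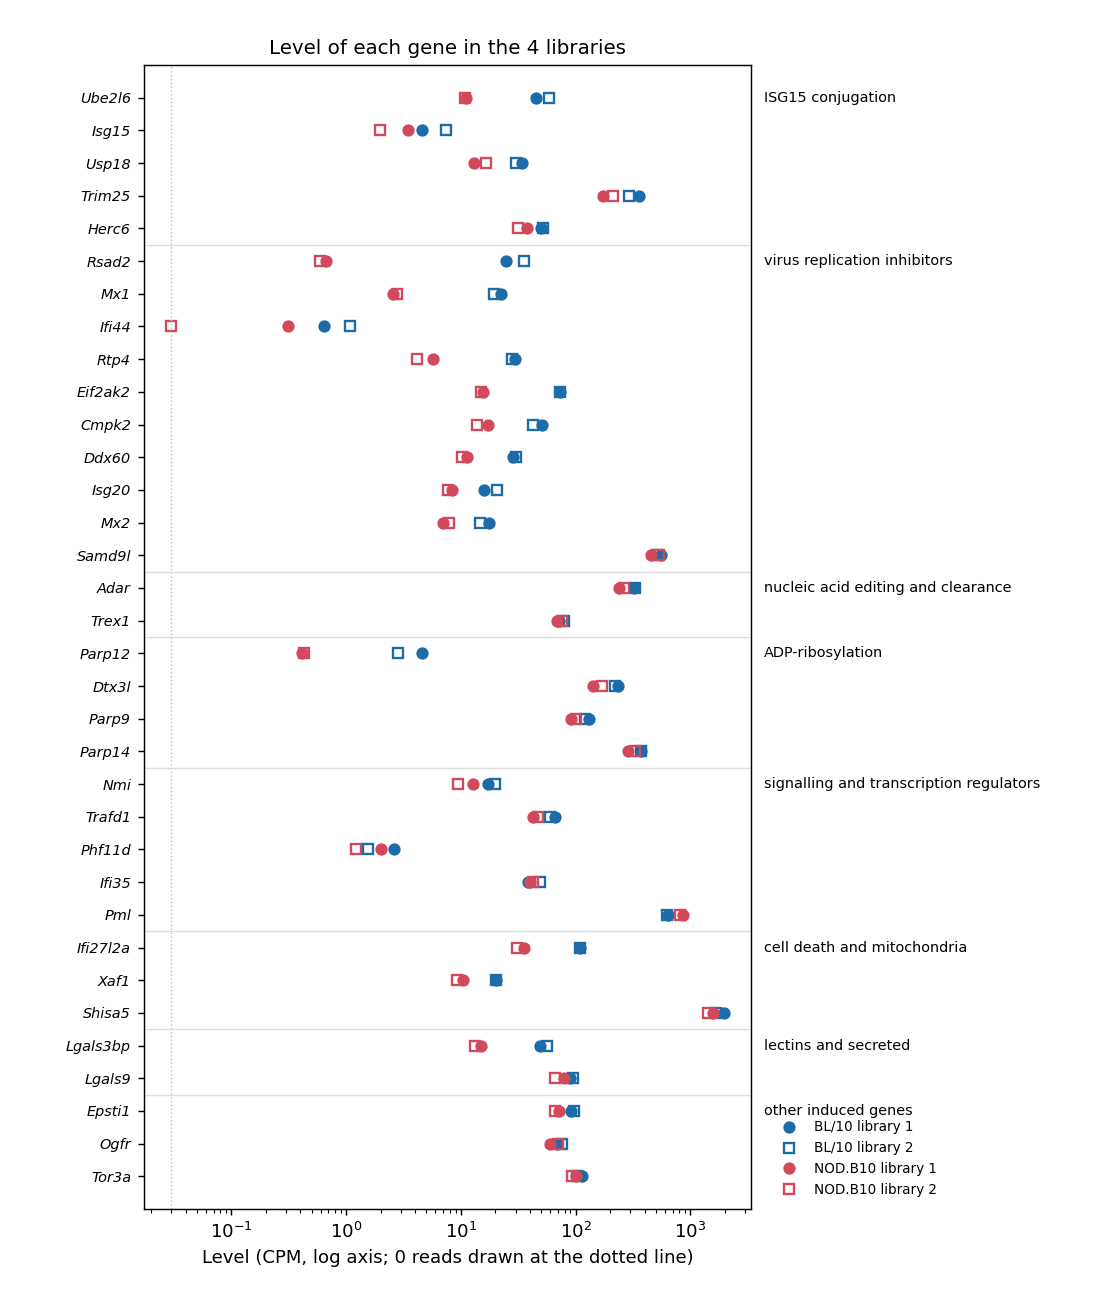
Level of each of the 34 genes in CPM on a log axis, with filled circles for library 1 and open squares for library 2, BL/10 in blue and NOD.B10 in red, grouped by the role of the gene product. In 28 genes both red marks lie left of both blue marks, and Pml is the 1 gene in which both lie to the right.

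The genes whose products act on virus replication included the deepest fall. Of these 10 genes 8 were lower, against 8.63% of all genes tested, and their median log2 fold change was −1.93. Rsad2 encodes viperin, an enzyme that makes a chain-terminating nucleotide. Its RNA reached 24.7 and 35.8 CPM in BL/10 but 0.674 and 0.587 CPM in NOD.B10 (log2 fold change −5.58, SE 0.294, FDR = 3.55e-08). Only 28 reads of this gene were counted in NOD.B10, beside 1654 in BL/10, and the strains did not come close to overlapping. Cmpk2, a mitochondrial nucleotide kinase that supplies the substrate of viperin, went from 50.7 and 42.4 CPM to 17.3 and 13.7 CPM, 3.02-fold (SE of the log2 fold change 0.17, FDR = 2.53e-05). Mx1 encodes a dynamin-like GTPase that blocks influenza viruses in the nucleus. Its level fell from 22.6 and 19.5 CPM to 2.54 and 2.78 CPM, 7.88-fold (FDR = 1.34e-06), and its relative Mx2 fell 2.16-fold, from 16.2 ± 2.23 to 7.47 ± 0.674 CPM (FDR = 0.0034). RefSeq lists both Mx genes of this assembly as transcribed pseudogenes. Laboratory strains such as C57BL/6 are known to carry defective copies, and these values measure RNA only.

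The kinase PKR, encoded by Eif2ak2, stops translation when it binds double-stranded RNA. Its RNA level was 72.9 and 72.4 CPM in BL/10 and 15.5 and 14.8 CPM in NOD.B10, a 4.78-fold fall in which the libraries of each strain lay within 1 CPM of each other (log2 fold change −2.26, SE 0.135, FDR = 9.36e-08). Rtp4, a chaperone-like protein that binds replicating viral RNA, fell 5.82-fold, from 28.5 ± 1.18 to 4.92 ± 1.1 CPM. Ddx60, a helicase linked to RNA sensing, and Isg20, an exonuclease that degrades single-stranded RNA, fell 2.73-fold and 2.28-fold (FDR = 6.78e-05 and 0.00189). These 4 genes kept their calls whichever library was left out. The remaining 2 genes of this group did not pass the test. Ifi44 was close to its detection limit, with 19 and 28 reads in BL/10 and 6 and 0 reads in NOD.B10 (FDR = 0.134, and 0.00724 without NOD.B10-1, when the remaining library of that strain has 0 reads). Samd9l, which restricts poxviruses, was abundant and overlapped between the strains, at 549 and 516 CPM in BL/10 and 454 and 533 CPM in NOD.B10 (log2 fold change −0.11, SE 0.108, FDR = 0.582).

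Promoter sequences show how unevenly a plain ISRE match is spread over these genes. RefSeq start sites on GRCm38.p6, the assembly that mm10 corresponds to, gave windows from 250 bases before to 50 bases after the start for 26 of the 34 genes. The core letters of an ISRE, taken as GAAA and GAAA with any 2 bases between, or TTTC and TTTC with the same gap for the other strand, were found in at least 1 window of 7 of these genes (26.9%), against 3.79% of 9548 tested genes with a window and 3.44% of all 32851 windows. The 200 bases before the start are printed for 3 genes with matches and for Cmpk2, the neighbour of Rsad2, which has none, so that the spacing can be seen. The sequences run 5′ to 3′ in the direction of the gene, with matches in capitals, and come from chr12:26456453-26456652 (minus strand), chr12:26469015-26469214 (plus strand), chr4:156200819-156201018 (minus strand) and chr8:61927887-61928086 (plus strand).
Rsad2: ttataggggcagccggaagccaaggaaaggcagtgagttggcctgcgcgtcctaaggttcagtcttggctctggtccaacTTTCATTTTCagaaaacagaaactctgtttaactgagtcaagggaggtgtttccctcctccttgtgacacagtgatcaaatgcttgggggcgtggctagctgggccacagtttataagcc
Cmpk2: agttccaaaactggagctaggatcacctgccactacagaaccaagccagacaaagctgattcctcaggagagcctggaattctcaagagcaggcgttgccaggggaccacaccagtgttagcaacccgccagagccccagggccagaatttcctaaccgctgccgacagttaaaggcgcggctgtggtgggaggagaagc
Isg15: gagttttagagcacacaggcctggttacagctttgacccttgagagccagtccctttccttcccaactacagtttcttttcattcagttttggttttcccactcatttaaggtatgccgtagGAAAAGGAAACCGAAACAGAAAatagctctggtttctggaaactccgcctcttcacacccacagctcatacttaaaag
Ddx60: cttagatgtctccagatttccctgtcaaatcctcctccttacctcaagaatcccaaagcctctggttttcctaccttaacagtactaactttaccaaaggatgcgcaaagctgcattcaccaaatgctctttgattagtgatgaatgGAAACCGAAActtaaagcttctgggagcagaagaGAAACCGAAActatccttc
The start used lies inside the RefSeq span of the gene for Cmpk2 and Ddx60, so 98 and 14 of their printed bases fall within that span; other starts of these genes were not searched. The single match of Rsad2 starts 120 bases before the annotated start. Isg15 has 3 matches that overlap each other, starting 78, 72 and 66 bases before its start, and Ddx60 has 2, at 53 and 19 bases. Lgals9 had 1 match 55 bases before its start and 1 after it, and Eif2ak2, Ogfr and 1 of the 5 windows of Shisa5 had a match only after the start. Of the 7 genes with a match, 3 fell and 4 were not called, while of the 19 without one 13 fell, 1 rose and 5 were not called. Their median log2 fold changes were −1.16 and −0.57. For Adar, Nmi and Trafd1, which fell without a match, the 200 bases before every start used lay wholly inside the RefSeq span. For Xaf1, which also fell without one, 168 of the 200 did. Sequence before the outer end of these spans was therefore mostly not searched. For Isg20, which fell without a match too, 28, 200 and 200 of the 200 bases before its starts lay inside the span. The letters TTCNNNGAA, the core of the gamma-activated sequence, a second interferon-responsive element, were found in 5 of the 26 genes, against 8.46% of tested genes. A match is a description of the letters in a window, not a site shown to be bound. Usp18, Mx1, Mx2, Rtp4, Parp9, Parp14, Ifi27l2a and Tor3a were not searched.

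Isg15 encodes a small ubiquitin-like protein, and the enzymes that attach it to other proteins are induced by interferon with it. Of these 5 genes 4 fell, and Isg15 itself was the exception. It had 136 and 192 reads in BL/10 and 67 and 50 reads in NOD.B10, or 4.59 and 7.44 against 3.47 and 1.96 CPM, so the strains did not overlap but the libraries of each strain differed by more than 1.5 times (log2 fold change −1.16, SE 0.382, FDR = 0.06). Isg15 passed without BL/10-1 (FDR = 0.0235), without NOD.B10-1 (FDR = 0.00232), with no filter (FDR = 0.00931) and without scaling factors (FDR = 0.0486). Ube2l6, the conjugating enzyme that carries ISG15, changed most, from 45.4 and 58.9 CPM to 11.2 and 10.8 CPM, 4.73-fold (log2 fold change −2.24, SE 0.171, FDR = 1.1e-06). Usp18 removes ISG15 from proteins and also blocks the receptor chain Ifnar2, which makes it a brake on the pathway. This gene fell 2.18-fold, from 32.1 ± 3 to 14.7 ± 2.56 CPM (FDR = 7.23e-04). The ligase genes moved less. Trim25, which also ubiquitinates the RNA sensor RIG-I, fell 1.68-fold from 321 ± 45.6 to 191 ± 27.8 CPM (FDR = 0.00244). Herc6, the main ISG15 ligase of mice, fell 1.48-fold from 50.9 ± 1.96 to 34.4 ± 4.24 CPM (FDR = 0.0131), a call lost without NOD.B10-2 (FDR = 0.115).

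Genes of ADP-ribosylation covered a wide range of fold changes, with 3 of 4 lower. Parp12, a zinc finger protein that blocks translation of viral RNA, had 135 and 73 reads in BL/10 and 8 and 11 in NOD.B10, an 8.65-fold fall at a low level (4.56 and 2.83 against 0.414 and 0.431 CPM, log2 fold change −3.11, SE 0.523, FDR = 0.00113). The large macrodomain protein gene Parp14 had a mean of 372 ± 2.57 CPM in BL/10 against 307 ± 30.8 CPM in NOD.B10 without a call (FDR = 0.106). Parp9 and Dtx3l encode partners in 1 ubiquitin ligase complex and showed small falls of 1.32-fold and 1.45-fold. Parp9 went from 132 and 120 to 90.9 and 100 CPM (FDR = 0.0352), and lost its call without BL/10-1 (FDR = 0.104), without either NOD.B10 library (FDR = 0.224 and 0.0517) and with a replicate block (FDR = 0.0595). Dtx3l went from 235 and 219 to 142 and 171 CPM (FDR = 0.00743) and lost its call without NOD.B10-1 (FDR = 0.09). Of the 2 genes that keep the cell's own nucleic acids from being sensed, 1 fell. Adar, which edits double-stranded RNA, fell from 326 ± 3.04 to 253 ± 17.5 CPM (FDR = 0.0295), a call lost without NOD.B10-1 or NOD.B10-2 (FDR = 0.269 and 0.0608). Trex1, a DNA exonuclease, stood at 75.5 ± 5.46 and 72.4 ± 5.65 CPM, and its groups overlapped (FDR = 0.82).

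**Figure D2:**
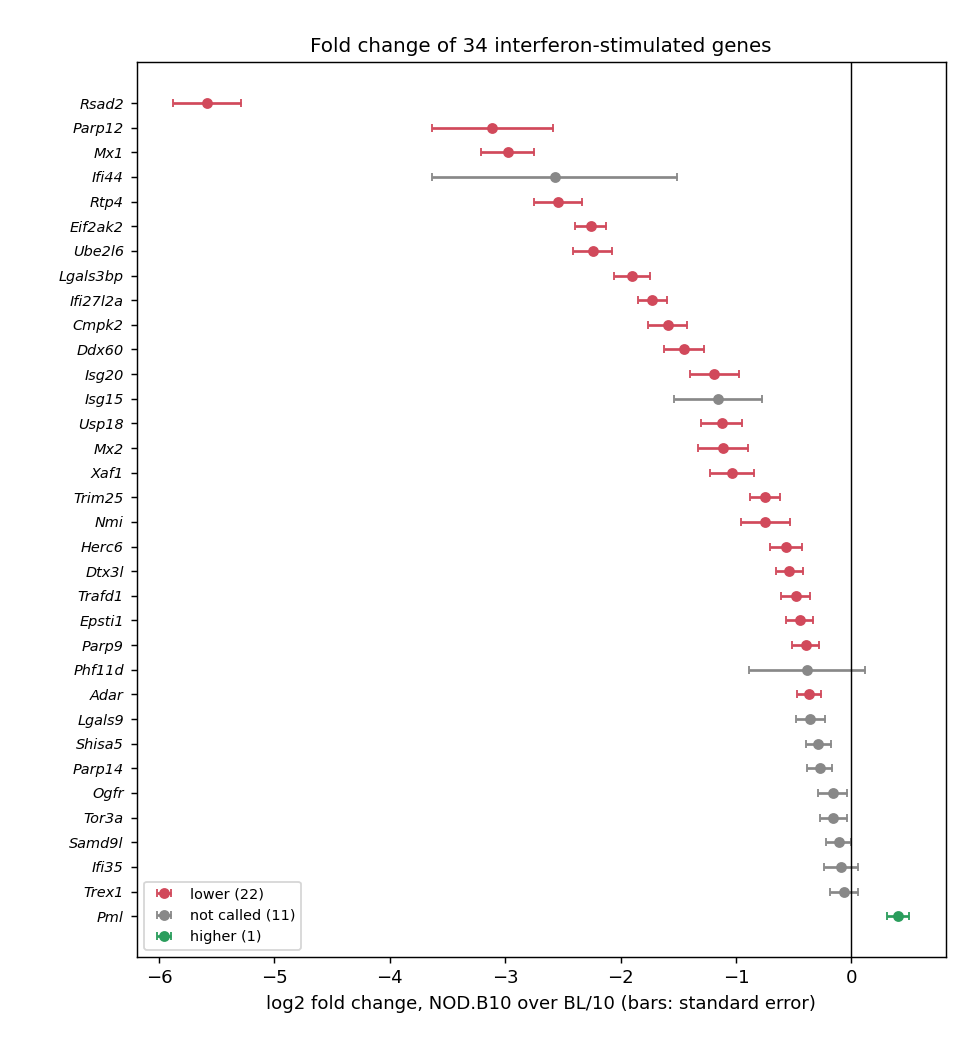
log2 fold change of each of the 34 genes, NOD.B10 over BL/10, with its standard error as a bar, ranked from the lowest at the top, and coloured by call. Rsad2 at −5.58 lies apart from the next gene, Parp12 at −3.11, and Pml at 0.40 is the 1 gene above 0.

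Among regulators of signalling and transcription, 2 of 5 genes fell, 1 rose and 2 were not called. The gene that rose was Pml, the scaffold of nuclear bodies, which are sites of antiviral and tumour-suppressor activity. It measured 643 and 628 CPM for BL/10 against 865 and 816 CPM for NOD.B10, where 6.55% of all genes rose (log2 fold change 0.40, SE 0.0961, FDR = 0.012), and lost its call without NOD.B10-1 (FDR = 0.14). Nmi, a protein that binds STAT factors, fell from 18.6 ± 1.92 to 11.2 ± 2.32 CPM (FDR = 0.0275), a call lost without BL/10-2 or NOD.B10-2 (FDR = 0.103 and 0.155). Its binding partner Ifi35 overlapped between the strains, at 38.5 and 49.3 against 39.8 and 42.7 CPM (FDR = 0.771). Trafd1, a feedback inhibitor of innate signalling, fell 1.4-fold from 62.6 ± 4.15 to 44.7 ± 3.37 CPM (FDR = 0.0199), and lost its call without BL/10-1 (FDR = 0.0638) or NOD.B10-1 (FDR = 0.115). Phf11d, of a zinc finger family with near-identical copies, had 31 to 78 reads per library, and its groups overlapped (FDR = 0.696).

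Genes linked to mitochondria and cell death included a clear fall at a high level. Ifi27l2a encodes a small membrane protein of mitochondria and the nuclear envelope. It had 109 CPM in both BL/10 libraries and 35.2 and 30.9 CPM in NOD.B10, 3.3-fold lower (log2 fold change −1.72, SE 0.124, FDR = 6.65e-07). Ifi27l1, the older symbol of Ifi27, fell 2.29-fold, from 41.8 and 32.6 to 18.4 and 14.2 CPM (FDR = 6.46e-04). The RefSeq spans of these 2 genes overlap by 6057 bases, and how reads in shared sequence were counted is not given in the sources used here. Xaf1, an antagonist of the apoptosis inhibitor XIAP, fell 2.05-fold, from 20.2 ± 0.101 to 9.85 ± 0.802 CPM (FDR = 0.0022). Shisa5, a protein of the endoplasmic reticulum, also had the highest level per 1000 bases of the 34 genes (below), and measured 1952 and 1672 CPM against 1558 and 1414 CPM. Its groups did not overlap, but the difference was not called (FDR = 0.0919), except without BL/10-2 (FDR = 0.00562) and with no filter (FDR = 0.0336).

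Of the 2 lectin genes, 1 fell. Lgals3bp, a secreted protein that binds galectins, fell 3.73-fold, from 49.4 and 56.6 to 15.1 and 13.4 CPM (log2 fold change −1.90, SE 0.155, FDR = 2.19e-06). Lgals9, galectin-9, which is known to restrain B cell receptor signalling, went from 92.7 ± 4.3 to 72.5 ± 9.44 CPM without being called (FDR = 0.0772), though it was without NOD.B10-1 (FDR = 0.0332) and with no filter (FDR = 0.0358). Whether these 2 differences differ from each other was not tested. Of the remaining 3 genes, Epsti1, a stromal interaction gene that macrophages also use, fell 1.36-fold, from 94.4 ± 3.88 to 69.2 ± 3.91 CPM (FDR = 0.0187), a call lost without NOD.B10-2 (FDR = 0.125). Ogfr, the opioid growth factor receptor, and Tor3a, an ATPase of the endoplasmic reticulum, had log2 fold changes of −0.16 each and were not called (FDR = 0.476 and 0.456).

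Several of these genes lie close to each other in the genome, and their fold changes are given side by side, with no test of the difference. On chromosome 12, Rsad2 (26442743 to 26456452) and Cmpk2 (26469117 to 26479837) are 12664 bases apart with no other RefSeq gene between them, and their falls were 47.9-fold and 3.02-fold. On chromosome 16, Mx1 (97447035 to 97462906) and Mx2 (97536081 to 97560901) are 73174 bases apart, with 2 other RefSeq genes between them, and fell 7.88-fold and 2.16-fold. Dtx3l (35926515 to 35939027) and Parp9 (35938470 to 35972621) on the same chromosome overlap by 558 bases and had falls of like size. On chromosome 9, Shisa5 (109038567 to 109057792) and Trex1 (109057932 to 109059723) are 139 bases apart, and neither was called. The 34 genes lie on 14 chromosomes, with 6 on chromosome 16 and 5 on chromosome 11.

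**Figure D3:**
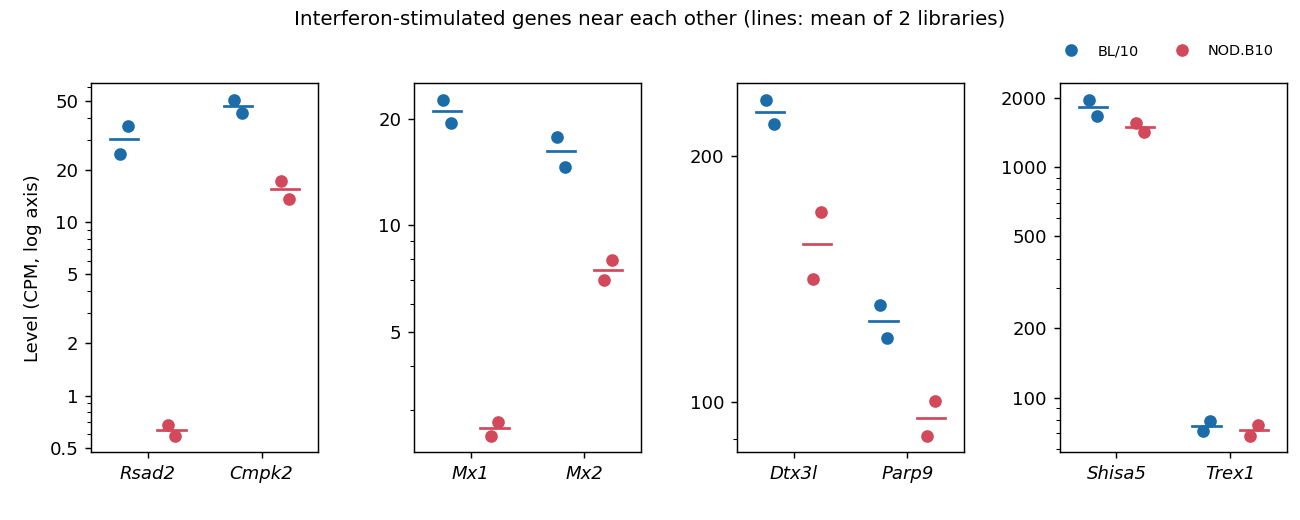
Level in CPM on a log axis, a separate one for each panel, of 4 pairs of genes close to each other, with 1 point per library, BL/10 in blue and NOD.B10 in red, and lines at the mean of 2 libraries. The gap between the strains is much wider for Rsad2 than for Cmpk2 and for Mx1 than for Mx2, and is similar for Dtx3l and Parp9.

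A list of 50 other genes of the interferon pathway, from the interferons to feedback inhibitors, was also read. Of these, 38 were tested, of which 8 fell, 2 rose and 28 were not called, with a median log2 fold change of −0.06. Of all genes tested, 8.63% fell and 6.55% rose. The interferon genes themselves were hardly read: of 13 genes 10 had 0 reads in every library, and 1, Ifnk, passed the filter without being called. Of 6 receptor chains 0 were called by edgeR, DESeq2 or limma-voom, with 1 at an unadjusted p under 0.05 in each, at log2 fold changes from −0.26 to 1.22. Of 5 genes for JAK kinases and ISGF3 subunits, the DNA-binding subunit Irf9 fell from 181 and 148 to 107 and 120 CPM (log2 fold change −0.53, SE 0.126, FDR = 0.0113), a call lost without NOD.B10-1 (FDR = 0.0545), and the other 4 lay between −0.13 and −0.03. Irf7 was the 1 called member of 6 interferon regulatory factors. This factor, which is itself induced by interferon and amplifies the response, fell 3.53-fold, from 79.1 and 73.3 to 23.2 and 20 CPM (log2 fold change −1.82, SE 0.136, FDR = 9.73e-07).

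Sensors and adaptors held most of the calls, with 5 of 12 lower, against 8.63% of all genes tested, and 1 higher. Ifih1, the sensor MDA5 of long double-stranded RNA, fell 4.25-fold, from 18.3 and 17 to 4.61 and 3.72 CPM (FDR = 3.45e-05). Tlr7, Dhx58 and Zbp1 fell 2.08-fold, 1.73-fold and 1.59-fold, and Ddx58, the sensor RIG-I, fell 1.34-fold (FDR = 0.0145), a call lost without either NOD.B10 library (FDR = 0.0792 and 0.084). Mb21d1, the DNA sensor cGAS, rose from 3.41 and 3.8 to 6.11 and 8.97 CPM (log2 fold change 1.07, FDR = 0.0307), a call lost without either BL/10 library (FDR = 0.107 and 0.0629) and without NOD.B10-2 (FDR = 0.202). Of 8 feedback inhibitors, Socs3 rose from 18.4 and 20.3 to 34 and 30.1 CPM (FDR = 0.00755) and Cish, an inhibitor of cytokine signalling through STAT5, fell from 2.26 and 2.95 to 0.414 and 0.0783 CPM (FDR = 0.00437). Only 8 and 2 reads of Cish were counted in NOD.B10, beside 67 and 76 in BL/10. Its log2 fold change was −3.46, or −4.98 without NOD.B10-1 and −2.63 without NOD.B10-2.

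**Figure D4:**
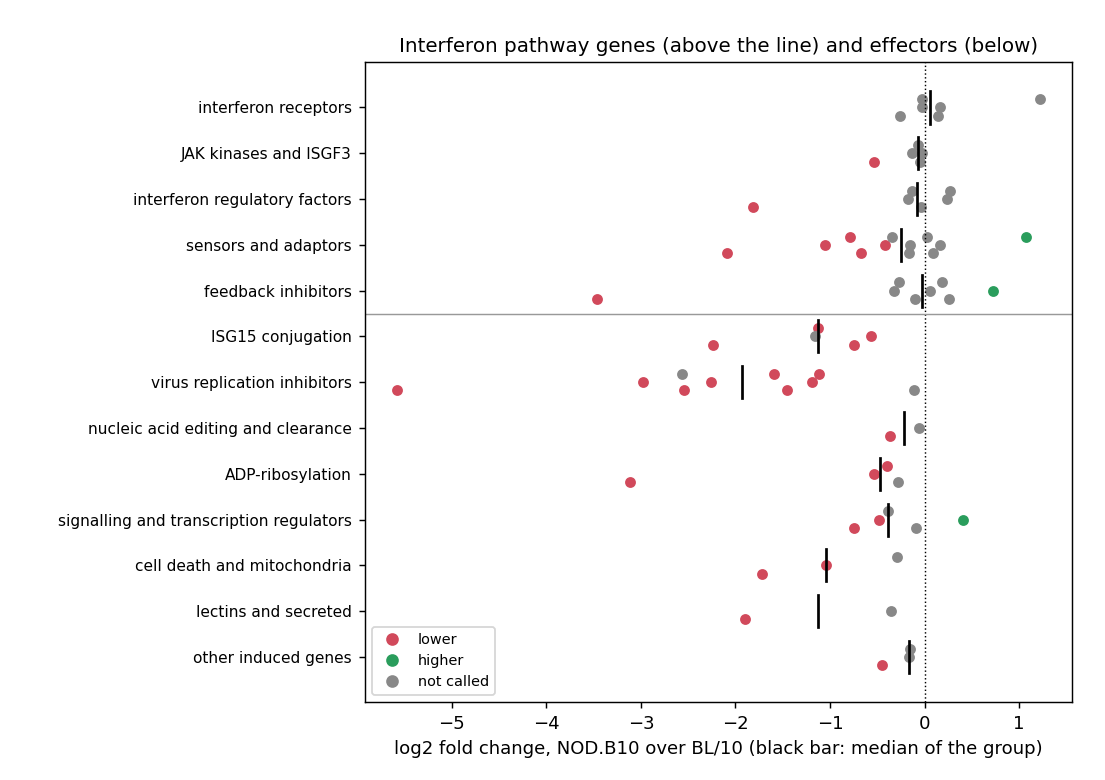
log2 fold change of tested genes, NOD.B10 over BL/10, 1 point per gene, by step of the interferon pathway above the line and by role of the effectors below it, with a black bar at the median of each group, vertical offsets only to separate points, and the interferon genes not drawn. Medians above the line lie between −0.25 and 0.06, and the lowest median below it is −1.93, for virus replication inhibitors.

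Levels were compared between genes per 1000 bases of the gene length in the deposited table. On this scale the mean BL/10 level ran from 0.297 CPM per 1000 bases for Ifi44 to 938 for Shisa5, with Ifi27l2a at 236 and Pml at 118. The genes with the deepest falls were of low to middle level in BL/10, with Rsad2 at 7.99, Mx1 at 7.07 and Parp12 at 1.14 CPM per 1000 bases. Across the 34 genes the log2 level in BL/10 and the log2 fold change had a Spearman correlation of 0.60 and a Pearson correlation of 0.45. This is a description across genes that share the same 4 libraries, and the BL/10 level enters both measures.

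B cell markers were abundant in the libraries of both strains. Beside the marker counts that follow, 8.63% of all genes tested fell and 6.55% rose. The 7 B cell markers, such as Cd79a, Ms4a1 and Pax5, had 0 calls in edgeR, DESeq2 and limma-voom and 1, Pax5, at an unadjusted p under 0.05 in edgeR, and summed to 6847 and 6691 CPM in BL/10 and 6857 and 6978 CPM in NOD.B10. All 15 T cell markers fell, from a summed 507 and 620 CPM in BL/10 to 63.1 and 63.2 CPM in NOD.B10, with 0 of the 15 at 0 reads in NOD.B10. Their log2 fold changes ran from −7.80 to −0.73, with a median of −6.13. Lck, the marker that fell least, held 38.3 and 45.9 CPM of the NOD.B10 sums. All 5 tested natural killer cell markers fell, from a summed 13.5 and 24.4 CPM to 2.85 and 3.76 CPM, with Klrk1, Klrd1 and Gzma at 0 reads in NOD.B10. The 5 plasmacytoid dendritic cell markers summed to 49.3 and 60.2 CPM in BL/10 and 34.3 and 41.6 CPM in NOD.B10 (2 of 4 tested fell, with Cox6a2 at 0 in NOD.B10). The log2 fold changes of those tested ran from −4.55 for Siglech to −0.14 for Pacsin1. The 2 that fell were Siglech and Klk1, the latter with a log2 fold change of −3.51. Pacsin1 and Ccr9, which were not called, held most of these sums. The 9 markers of macrophages and conventional dendritic cells summed to 54.5 and 63.4 CPM in BL/10 against 52.4 and 36.8 CPM (2 of 9 fell). The 6 neutrophil markers summed to 3.92 and 7.4 CPM in BL/10 against 2.18 and 0.783 CPM (2 of 4 tested fell, with S100a8, S100a9 and Retnlg at 0 in NOD.B10). The 4 mast cell markers summed to 3.44 and 4.46 CPM in BL/10 and were all at 0 reads in NOD.B10 (3 of 3 tested fell). The 4 erythroid markers summed to 239 and 471 CPM in BL/10 against 10.3 and 4.27 CPM (2 of 3 tested fell, with Slc4a1 at 0 in NOD.B10 and Hba-a1 at 0 in all 4 libraries). With scaling factors set by the B cell markers instead of TMM, 22 of the 34 effectors fell and 1 rose. Such factors rescale each library as a whole, so this count cannot separate out RNA of other cells. The part of these other cells in the falls of the effectors was not tested.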

How the data were processed

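Values are read counts, deposited by the authors as 1 table with a symbol and length for each gene, of 4 libraries of cervical lymph node B cells, 2 labelled BL/10 and 2 labelled NOD.B10. The submitters' processing notes name the build mm10 and, with no role or order, featureCounts, Subread 1.6.5, HISAT2 2.1.0 and SAMtools 1.3. No separate build is named for NOD.B10. Whether reads of NOD.B10 align to mm10 as fully as those of BL/10 was not tested. Any such difference would be part of the fold changes. The annotation, strand setting and treatment of multimapping reads are not given in the sources used here, so genes that overlap others, which 13 of the 34 do in RefSeq, or that have near-identical copies carry an uncertain count.

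Counts were tested with edgeR 4.0.16 in R 4.3.3 (TMM factors, filterByExpr at its defaults of 10 reads and 15 in total, robust glmQLFit, glmQLFTest, two-sided, design of strain only) over 13075 genes, with Benjamini-Hochberg adjustment and a threshold of 0.05. Every FDR, which is an adjusted p, without a named tool comes from this test. The SE is the unshrunk log2 fold change over the square root of F. The procedure and the motif search were tested on simulated data. DESeq2 1.42.0, limma-voom 3.58.1, other factors, other filters, a replicate block and leaving out each library were tried. Total counts were 19328803 to 29372751 reads, and a gene with 0 reads in 1 library could still have a level of up to 0.101 to 0.155 CPM there (3 reads, counting error only).

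All 35 listed genes are reported, and each called gene of the pathway list is named. The other genes of that list and the markers enter as counts, ranges and sums, with some markers named. From these, 3 genes were left out, which are not reported here. The genes and lists were chosen with earlier results of these data known. Positions, promoters and neighbours come from RefSeq on GRCm38.p6, to which all 34 genes matched by symbol.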

Additional observations from a re-analysis of the deposited data

How the results depend on the processing

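Of 475 values of the 34 genes under 14 alternatives, 448 kept their direction and their side of the threshold, 14 lost and 9 gained a call, and 4 changed sign. In all 14 alternatives 15 of the 23 called genes kept their call and direction. Without scaling factors and with B cell marker factors, both chosen after seeing the data, 23 and 22 genes fell. Leaving out 1 library gave 17 to 22 genes that fell and 0 to 1 that rose, the 0 without NOD.B10-1, where Pml lost its call in edgeR (1 gene rose at an unadjusted p under 0.05), and a median log2 fold change of −0.88 to −0.73. With no filter 25 genes fell. The values that changed sign were not called: Phf11d at 0.0516 without BL/10-1, Ifi35 at 0.0927 and Trex1 at 0.0088 without BL/10-2, and Trex1 at 0.0059 without NOD.B10-1. Over the 4 libraries left out, log2 fold changes ran from −0.80 to 0.0516 for Phf11d, from −0.26 to 0.0927 for Ifi35 and from −0.14 to 0.0088 for Trex1. The cause was not tested. The labels do not say whether equal replicate numbers pair these samples. The difference between replicate 1 and 2 correlated at −0.02 across genes between the strains, which with 2 libraries per strain cannot settle it. With a replicate block 21 genes fell and 1 rose, and Parp9 lost its call. Ifi44, with 6 and 0 reads in NOD.B10, had log2 fold changes from −7.55 to −1.45 when 1 library was left out.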

Other observations

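The genes next to these effectors were examined because several effectors lie in clusters. Taking the nearest tested protein-coding gene on each side, and leaving out neighbours that are effectors themselves, gave 57 genes, of which 10 fell (17.5%, against 8.63% of all genes tested), 2 rose and 45 were not called, with a median log2 fold change of −0.13. Sult6b1, a sulfotransferase gene 2312 bases from Eif2ak2, fell from 114 and 124 reads in BL/10 to 1 and 7 reads in NOD.B10, a log2 fold change of −4.59 (SE 0.621, FDR = 1.87e-04) that was −3.97 without NOD.B10-1 and −6.25 without NOD.B10-2. Rnf144a, a ubiquitin ligase gene 27423 bases from Rsad2 on the side away from Cmpk2, fell 1.69-fold, from 258 and 218 to 139 and 143 CPM (FDR = 5.64e-04). Both were picked after their values were seen. Neighbours lay 23 to 2741825 bases away, so some are not close. Among the 10 that fell, Rps7, Cpe and Adgrl2 lay 2151009, 2554837 and 2741825 bases away, and Mfge8 and Tnfsf11 213371 and 274789 bases. Whether the share of neighbours that fell depends on distance was not tested.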
